A study of Mus musculus with 18 samples.

Results

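The differential m6A peaks of 54 autophagy and mTOR genes were examined in the mouse uterus on day 5 of pregnancy. The genes comprise the core machinery of autophagosome formation, the receptors that select cargo, the lysosome with its transcription factors, and the mTOR kinase with its regulators. A peak was given to a gene when the annotation of the peak named the gene, or when the gene was the one assigned to the peak and the peak centre lay between the start and end of that gene. Under this rule 68 peaks fell in 29 of the 54 genes, out of 24226 peaks given to any protein-coding gene and 40929 peaks used in all. N6-methyladenosine (m6A) is the most common internal modification of mRNA. It is measured by m6A-seq, in which fragmented RNA is pulled down with an antibody to m6A and compared with the input RNA.

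The mice were 8-week-old wild-type females of the ICR strain. The Veh group received saline intraperitoneally from day 1 to day 4 of pregnancy. The LPS group received the same saline and, on days 3 and 4, lipopolysaccharide (LPS, a component of the outer membrane of Gram-negative bacteria) at 0.5 mg/kg, 30 min after the other injection. The Mel+LPS group received melatonin at 10 mg/kg, dissolved in saline with 3% ethanol, in place of the saline, and the same LPS. The labels name the Veh and LPS injections as saline only, so it is not known here whether they held ethanol. Each group had 3 replicates, with an input library and an immunoprecipitated (ip) library made from each, 18 libraries in total. The methods state neither whether uteri were pooled within a replicate nor how the replicates were combined for the comparison.

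The authors deposited 4 tables, which list the peaks stronger (up) and weaker (down) in LPS than in Veh, called the LPS comparison below, and in Mel+LPS than in LPS, called the melatonin comparison. A peak has a single score per comparison, the log10 likelihood ratio of a difference between the groups, and no value per replicate. The scores below therefore have no replicate error, no test was possible, and it is unknown how many reads they rest on. A score gives the strength of the evidence for a difference and not its size. Both comparisons use the LPS libraries, so the values of a gene in both comparisons are given side by side and are not independent. The list of down peaks of the LPS comparison is complete for chromosomes 1 to 9 only, where 27 of the 54 genes lie. For genes on other chromosomes a peak down in that comparison could not be seen, so peaks listed only as up do not show a single direction. No transcript levels were analysed here, so a change in methylation and a change in the amount of transcript cannot be told apart, nor can fewer cells of a type and less RNA per cell in a whole uterus. Peaks were found in 7 of 10 uterus markers and in 3 of 10 leukocyte markers, and in 42.3% of all protein-coding genes. Peaks up in the LPS comparison were found in 4 uterus and 3 leukocyte markers (20.1% of all genes) and down in 2 of 7 and 0 of 6 on chromosomes 1 to 9 (22.0%). For the melatonin comparison these counts were 5 and 2 up (25.6%) and 5 and 2 down (15.3%). The part of infiltrating leukocytes in the values below was not tested.

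Macroautophagy encloses cytoplasm in a double membrane that later fuses with lysosomes. It starts with the ULK kinase complex, continues with a class III phosphatidylinositol 3-kinase (PI3K) complex that marks the growing membrane with PI3P, and needs a ubiquitin-like conjugation system that attaches ATG8 proteins, such as LC3, to the membrane. Cargo receptors bridge ubiquitinated cargo and ATG8 proteins. The mTOR kinase of complex 1 inhibits the ULK complex when nutrients are plentiful, and the TSC complex, of which TSC1 and TSC2 are parts, holds that kinase in check. In the uterus, autophagy is known for its activity in the endometrium around implantation and decidualization.

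The mRNA methyltransferase acts in the motif DRACH, which reads A, G or T, then A or G, then AC, then A, C or T. GGAC is its best known core and is part of a DRACH when A, C or T follows. The following stretches show motifs inside some peaks of the main genes. They do not give the frequency of GGAC, which was present in 14 of 39 peaks with bases on an exon (35.9%). Each is the GGAC, or the DRACH where the peak held no GGAC, nearest to the peak centre on the transcript strand, with 10 bases on each side, from the GENCODE M21 transcripts. Capitals mark the motif, and coordinates are those of GRCm38. Exon numbers are those of the deposited annotation, and the Atg14 and Ambra1 exons shown are each exon 7 in GENCODE. A selection is shown, from genes with a peak in both comparisons and an exon peak in one or both of them, from Atg5 and Sqstm1, which the study measured, from Tsc1 and Mtor of the mTOR group, and from Ulk1 as an example of a 3′UTR peak that the rule did not give to its gene.
Rb1cc1, exon 15, in a peak up in the LPS comparison, chr1:6249312-6249335, plus strand: aggaattagaGGACacactgcaca
Rb1cc1, exon 15, in a peak up in the melatonin comparison, chr1:6248793-6248816, plus strand: aaaccatcaaGGACgatctgtgcc
Pik3r4, exon 2, in a peak up in the LPS comparison, chr9:105644634-105644657, plus strand: tgacggccgtGGACcaagcgcaca
Pik3r4, exon 2, in a peak up in the melatonin comparison, chr9:105644943-105644966, plus strand: agagagccatGGACatcttttcgg
Pik3r4, exon 4, in a peak up in the melatonin comparison, chr9:105650755-105650778, plus strand: gaagccctgaGGACactcaccaaa
Atg14, exon 6, in a peak up in the LPS comparison, chr14:47548961-47548984, minus strand: caaacaacggGGACtactctgctt
Ambra1, exon 8, in a peak up in the LPS comparison, chr2:91773596-91773619, plus strand: caagaggagaGGACtgtgggggtg
Optn, exon 7, in a peak down in the melatonin comparison, chr2:5036676-5036699, minus strand: gagagaaggaGGACaaaggccaag
Tfeb, last exon, in a peak up in the LPS comparison and a peak down in the melatonin comparison, chr17:47791672-47791695, plus strand: agaaggatctGGACttaatgctcc
Tsc1, exon 18, in a peak down in the LPS comparison and a peak up in the melatonin comparison, chr2:28680156-28680180, plus strand: agctacagcaTGACCgagaagaatt
Mtor, exon 2, in a peak up in the melatonin comparison, chr4:148452342-148452365, plus strand: gttcgccagtGGACtgaagagccg
Sqstm1, exon 7, in a peak up in the melatonin comparison, chr11:50202434-50202457, minus strand: ctcacaggaaGGACccacagggct
Atg5, 3′UTR, in a peak up in the LPS comparison, chr10:44363234-44363257, plus strand: gagacacacaGGACcactgcagcc
Ulk1, 3′UTR, in a peak down in the melatonin comparison, chr5:110785619-110785643, minus strand: agactgctggGAACCtgcctcctgt
The Rb1cc1 stretch from the melatonin comparison is a GGAC followed by G and so is not a DRACH. The other exon 15 peaks of Rb1cc1, among them all those down in the melatonin comparison, held no GGAC and are not shown. In the Tsc1 exon 18 peaks no GGAC was present, and the DRACH shown was the nearest to the centre of both peaks.

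The share of these genes with a peak was 53.7% (29 of 54, 95% Wilson interval 40.6% to 66.3%), and 42.3% of 21887 protein-coding genes had one. Of the genes with a peak, 15 had a single peak and 17 had peaks in a single table. Rb1cc1 with 10 peaks, Wdfy3 with 7, Pik3c3 with 6, and Pik3r4 and Tsc1 with 5 each held 33 of the 68 peaks (48.5%). Genes with a peak had longer transcripts, with a median of 3761 bases compared with 3238 bases for the 25 genes without one. Over all protein-coding genes the medians were 3366 and 2150 bases. Among genes with transcripts of 5000 bases or more, 11 of 16 autophagy and mTOR genes (68.8%) and 65.4% of all genes had a peak. With transcripts of 2500 to under 5000 bases, 9 of 20 (45.0%) and 52.8% had one.

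In the LPS comparison, 16 peaks in 14 of 54 genes were up (25.9%, interval 16.1% to 38.9%), and 20.1% of all protein-coding genes had such a peak. On chromosomes 1 to 9, 10 peaks in 6 of 27 genes were down (22.2%, interval 10.6% to 40.8%), against 22.0% of all genes. In the melatonin comparison, 26 peaks in 16 genes were up (29.6%, interval 19.1% to 42.8%), against 25.6% of all genes. There, 16 peaks in 12 genes were down (22.2%, interval 13.2% to 34.9%), against 15.3% of all genes. Under this rule the share over all genes lay within the interval in each of the 4 tables. Counted only among genes with a peak in any table, the shares were 14 of 29, 6 of 14, 16 of 29 and 12 of 29 in the same order, against 47.6%, 49.2%, 60.6% and 36.2% of all genes. The median score of the peaks was 2.79 for those up in the LPS comparison and 3.4 for those down, compared with 2.58 and 2.45 over all peaks given to genes. In the melatonin comparison the medians were 2.19 up and 2.27 down, compared with 2.16 and 2.88. Both directions occurred in 3 of the 10 genes on chromosomes 1 to 9 with a peak in the LPS comparison and in 5 of the 23 genes with a peak in the melatonin comparison (21.7%), where 20.8% and 18.9% of all such genes had both.

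**Figure D1:**
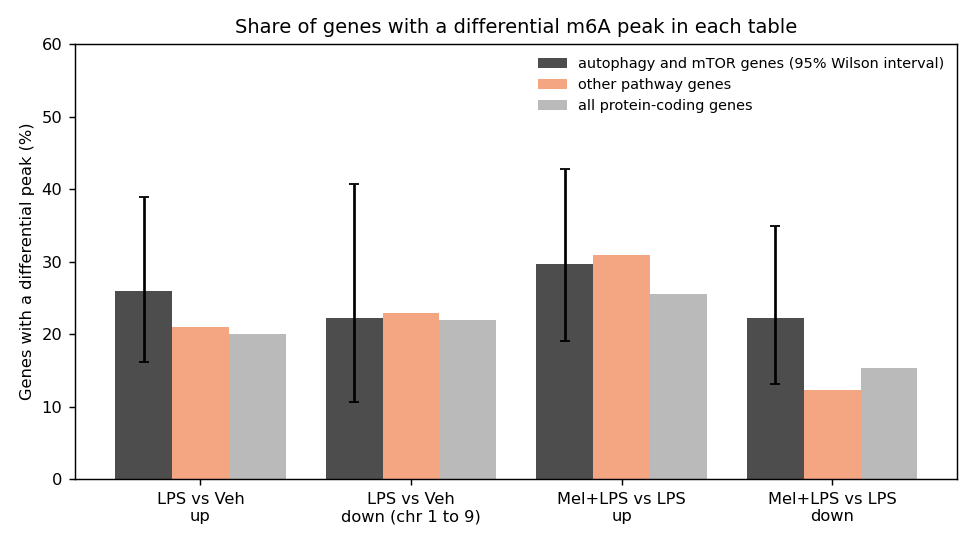
Bars give the percent of genes with at least 1 differential peak in each of the 4 tables, for the 54 autophagy and mTOR genes, 81 other pathway genes and all protein-coding genes; black lines are 95% Wilson intervals of the first. The largest gap between the autophagy and mTOR genes and all genes is 22.2% against 15.3%, for peaks down in the melatonin comparison, and every interval, with peaks given to genes by the rule, includes the value of all genes.

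Each table held a score that many peaks carried, which therefore ranks none of them above another: 3.78 by 1450 of 12023 peaks up in the LPS comparison, 3.63 by 734 of 6259 peaks down, 5.42 by 479 of 13436 peaks up in the melatonin comparison, and 3.85 by 1370 of 9211 peaks down. Between 50.9% and 70.4% of these peaks lay in introns or between genes, compared with 14.8% to 34.2% of the other peaks. A score carried by at least 20 peaks of its table is called a shared score below. It was found for 10 of the 68 peaks (14.7%, against 10.6% of all peaks given to genes), in 9 genes. Such scores are marked where they occur.

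**Figure D2:**
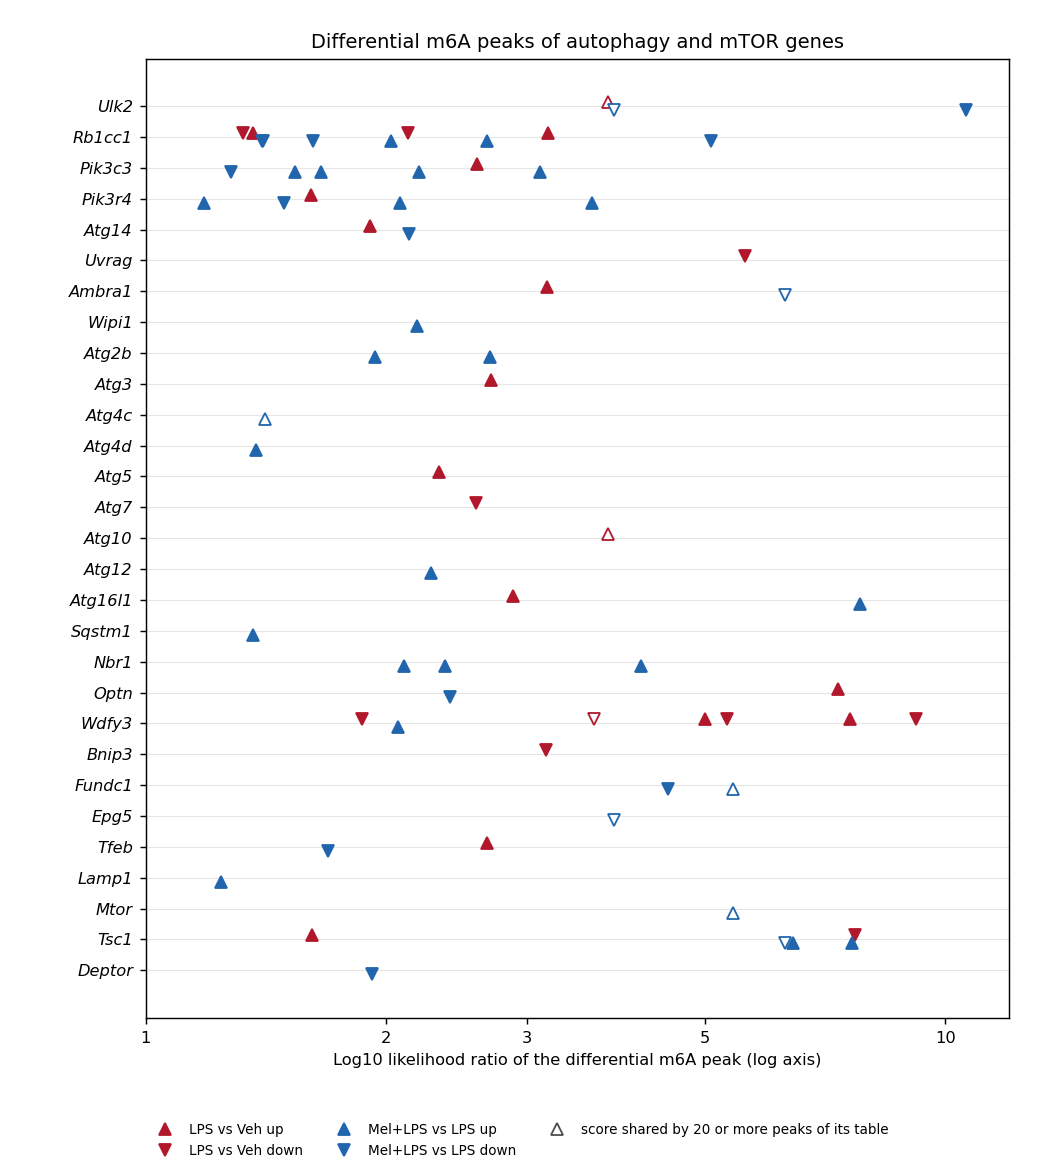
Each symbol is 1 peak of the gene on the left, placed on a log axis by its log10 likelihood ratio, with triangles up or down for the direction, red for LPS vs Veh and blue for Mel+LPS vs LPS. Open symbols are shared scores, and the highest score is the 10.6 of Ulk2.

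The groups below are small, and 42.3% of all protein-coding genes had a peak. Of the 5 genes of the ULK complex, which starts autophagosome formation, Ulk2 and Rb1cc1 had peaks, 13 in all. Rb1cc1 encodes FIP200, the scaffold of the complex, and its exon 15, a coding exon of 1892 bases, held 6 of its 10 peaks. In the LPS comparison, peaks at chr1:6248403-6248563 and chr1:6249131-6249664 were up, with scores of 1.36 and 3.19. In the melatonin comparison, a peak that shared 114 bases with the first of these was down with a score of 1.4. Peaks inside the second one, which shared 109 and 150 bases with it, were down with scores of 1.62 and 1.4. Between these sites, chr1:6248688-6248834 was up in the melatonin comparison with a score of 2.67. Neighboring sites of the same exon were thus listed in opposite directions in that comparison. In intron 15, overlapping peaks were down in both comparisons, with a score of 1.32 in the LPS comparison and 5.10 in the melatonin comparison. The other Rb1cc1 peaks were at exon 23, down in the LPS comparison with a score of 2.13, and in intron 22, up in the melatonin comparison with a score of 2.02.

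Ulk2, a kinase of the complex, had peaks in introns only. In intron 3 the peak at chr11:61844420-61844620 was down in the melatonin comparison with a score of 10.6, the highest of the 68 and above 98.1% of the peaks of its table. In intron 8 a peak was up in the LPS comparison (3.78) and a peak with the same start was down in the melatonin comparison (3.85), both with shared scores. Atg13, the regulatory subunit that binds the kinase, had no peak.

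Of the 6 genes of the class III PI3K complex and its regulators, 5 had peaks, 16 in all (42.3% of all genes had a peak). Becn1, which encodes the Beclin 1 subunit, had none by any assignment used. Pik3r4, which encodes the regulatory subunit VPS15, had a peak up in exon 2 in both comparisons, but at separate sites of this exon of 774 bases. The peak at chr9:105644450-105644654 was up in the LPS comparison with a score of 1.61, and the peak at chr9:105644759-105645052 was up in the melatonin comparison with a score of 2.08. Exon 4 had a peak up in the melatonin comparison with a score of 3.61, the highest of this gene. At exon 12 a peak was up (1.18) and at exon 19 a peak was down (1.49) in the same comparison.

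Pik3c3, the catalytic subunit VPS34, had 6 peaks on chromosome 18, of which 4 lay in intron 1. A wide intron 1 peak of 1351 bases was up in the LPS comparison with a score of 2.60. Within it, 1 peak was up (1.66) and another down (1.28) in the melatonin comparison, and a separate peak nearby was up (2.19). The remaining peaks, in intron 16 (3.11) and at exon 5 (1.54), were up in the melatonin comparison.

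Atg14, which directs the complex to the site of autophagosome formation, had a peak up in the LPS comparison at exon 6, chr14:47548812-47549125, with a score of 1.91. A peak that shared 93 bases with it, annotated to intron 6, was down in the melatonin comparison with a score of 2.13. Ambra1, a regulator of Beclin 1, had a peak up in the LPS comparison inside its exon 8 with a score of 3.17. It also had a peak down in the melatonin comparison in intron 1 with a score of 6.29, which 194 peaks of that table share. Uvrag, a subunit of another form of the complex, had only a peak down in the LPS comparison in intron 1 with a score of 5.61.

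Of the 6 genes for PI3P effectors, lipid transfer and the ATG9 membrane protein, Wipi1 and Atg2b had peaks (42.3% of all genes had a peak). All 3 peaks were up in the melatonin comparison, where 25.6% of all genes had an up peak. Exon peaks of Wipi2 and Vmp1 that were given to other genes were down in it. Atg2b, a lipid transfer protein, had them at exon 28 with a score of 2.70 and at exon 41 with a score of 1.93. Wipi1, which binds PI3P, had its peak in intron 3 with a score of 2.19. Atg2a, the paralog of Atg2b, and Atg9a had none.

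Of the 11 conjugation genes, 8 had peaks, 9 in all (42.3% of all genes had a peak). Under the rule 0 of the 11 were down in the melatonin comparison (15.3% of all genes), but peaks on exons of Atg4a and Atg4c that were given to other genes were down there. Atg16l1, which places the conjugation enzyme on the membrane, had the highest score, 7.83, in intron 1 at chr1:87756656-87756799, up in the melatonin comparison. In the LPS comparison it had a peak up at exon 5 with a score of 2.88, of which 7 bases lie on the exon. Atg5, whose product is joined to ATG12, had a peak up in the LPS comparison in intron 5 with a score of 2.33. Atg7, the E1-like enzyme, had a peak down in the LPS comparison in its last intron with a score of 2.59. Both Atg5 and Atg7 had no peak in the melatonin comparison under the rule. Atg3, the E2-like enzyme for ATG8 proteins, and Atg10, the E2-like enzyme for ATG12, had 1 peak up in the LPS comparison each, with 2.70 and a shared score of 3.78. Atg12, Atg4d and Atg4c had 1 peak up each in the melatonin comparison, with 2.27, 1.38 and a shared score of 1.41. The Atg4c peak had no base on the GENCODE exons of that gene, and the centre of the Atg4d peak also lay on an exon of Kri1. Atg4b and Atg16l2 had none.

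None of the 5 ATG8 genes (Map1lc3a, Map1lc3b, Gabarap, Gabarapl1 and Gabarapl2) had a peak in any table, also when peaks were joined by exon position. Map1lc3b encodes LC3B, the form most often used to follow autophagy. Their transcripts were short, at 1112 to 2532 bases. Of all genes with transcripts under 2500 bases, 29.4% had a peak, and of the 18 such autophagy and mTOR genes, 9 had one (50.0%).

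Of the 6 genes for cargo receptors and scaffolds, 4 had peaks, 13 in all (42.3% of all genes had a peak). Wdfy3, a large scaffold for the removal of protein aggregates, had peaks in both directions in the LPS comparison. The peak at chr5:102062375-102062574, annotated to the 5′UTR, was down with a score of 9.19, and the peak at exon 44, chr5:101882341-101882445, was up with a score of 7.61. At exon 41 a peak was down with a score of 5.33. The first of these 3 peaks had no base on an exon of the GENCODE transcript, and the exon peaks had 23 and 10 bases on it. In intron 3, separate peaks were up (5.01) and down (1.86), and the intron 2 peak was down with a shared score of 3.63. Wdfy3 had 1 peak in the melatonin comparison, up at exon 45, with a score of 2.07.

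Optn, a receptor for ubiquitinated cargo, had overlapping peaks in the comparisons. The peak at chr2:5036498-5036671 was up in the LPS comparison with a score of 7.33, above 91.6% of the peaks of its table. The peak at chr2:5036540-5036689, with 132 bases in common, was down in the melatonin comparison with a score of 2.40. Both were annotated to exon 7, although only 1 base of the first and 19 bases of the second lie on it. Nbr1, another ubiquitin receptor, had 3 peaks, all up in the melatonin comparison, in the 5′UTR (4.17) and at exons 17 (2.10) and 21 (2.37). Sqstm1, the receptor p62, had 1 peak, up in the melatonin comparison at exon 7, with a score of 1.36. This score is low, above 13.6% of the peaks of its table. Calcoco1 and Tax1bp1 had no peak.

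Of the 4 mitophagy genes, Bnip3 and Fundc1 had peaks (42.3% of all genes had a peak). Bnip3, a receptor on mitochondria, had a peak down in the LPS comparison at exon 2 with a score of 3.17. Fundc1, also a mitochondrial receptor, had intron 3 peaks up (5.42, a shared score) and down (4.50) in the melatonin comparison. Pink1 and Bnip3l had none.

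Of the 6 genes for the lysosome and its transcription factors, Tfeb, Epg5 and Lamp1 had peaks (42.3% of all genes had a peak). Tfeb, a transcription factor for lysosome and autophagy genes, had peaks at the same start, chr17:47791671, in the comparisons. The peak was up in the LPS comparison with a score of 2.67 and down in the melatonin comparison with a score of 1.69, and the shorter of them lay within the longer. The deposited annotation placed them in the 3′UTR, while their centres lay in the coding part of the last exon, 59 and 66 bases before the stop codon in GENCODE. Lamp1, a membrane protein of lysosomes, had a peak up in the melatonin comparison at exon 3 with a score of 1.24. Epg5, a tether for fusion with lysosomes, had a peak down in the melatonin comparison at exon 2 with a shared score of 3.85. Tfe3 and Mcoln1 had none.

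Of the 5 genes for the mTOR kinase and its regulators, Tsc1, Mtor and Deptor had peaks, 7 in all (42.3% of all genes had a peak). Tsc1, a subunit of the inhibitory TSC complex, had the 2 highest scores of the group. At exon 18 the peak at chr2:28680080-28680347 was down in the LPS comparison with a score of 7.71. The peak at chr2:28680111-28680313, which lies entirely within it, was up in the melatonin comparison with a score of 6.45. Of these peaks, 126 and 95 bases lie on the exon. In intron 12 a peak was up in the melatonin comparison with a score of 7.65, and at exon 20 a peak was up in the LPS comparison with a score of 1.61. Around the first exon of Tsc1 a promoter-annotated peak was down in the melatonin comparison with a shared score of 6.29.

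Mtor, the kinase itself, had a peak up in the melatonin comparison in exon 2 with a shared score of 5.42. Deptor, an inhibitory partner of the kinase, had a peak down in the melatonin comparison in intron 3 with a score of 1.92. Tsc2, the GTPase-activating subunit of the TSC complex, had no peak.

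**Figure D3:**
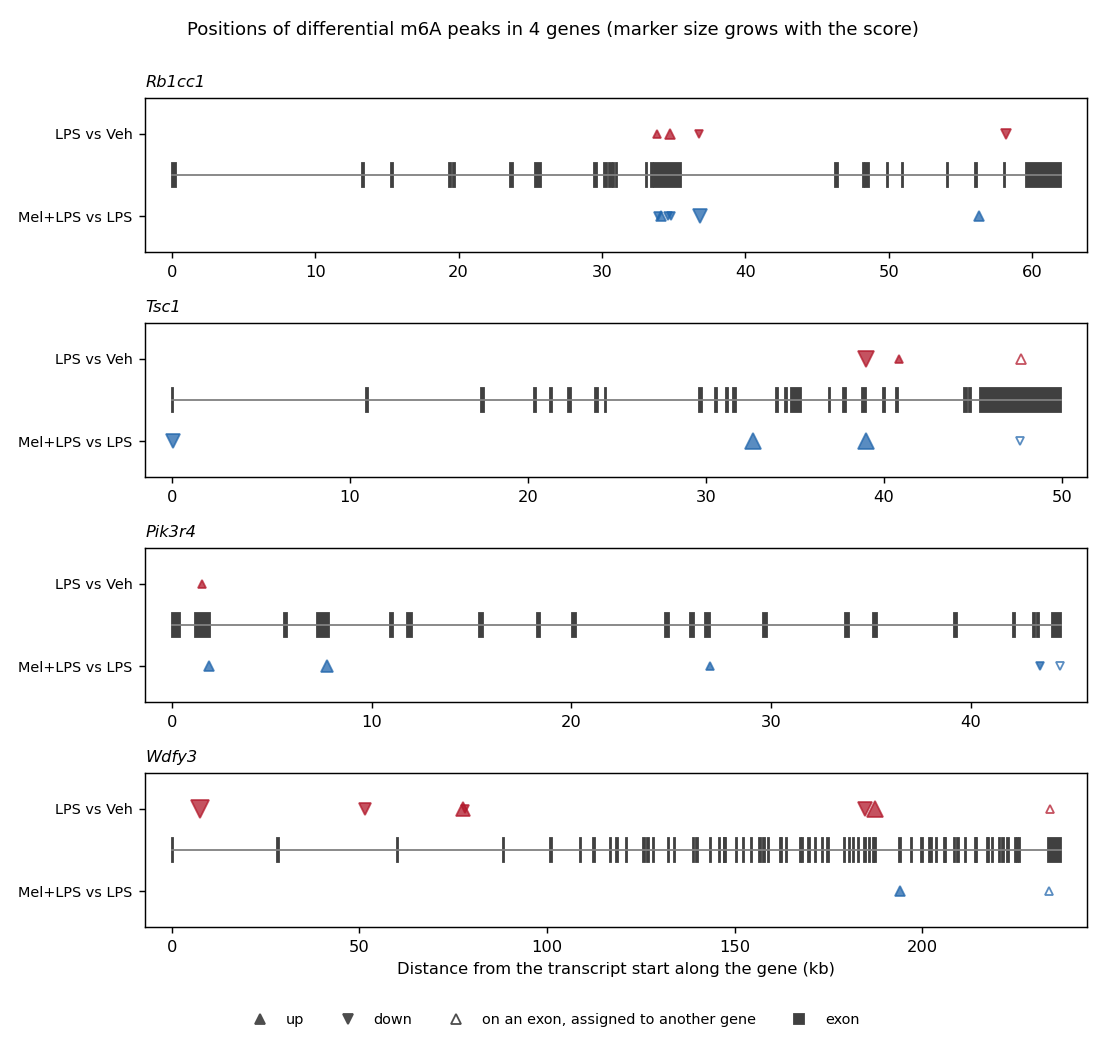
Exons (grey boxes) and differential peaks of Rb1cc1, Tsc1, Pik3r4 and Wdfy3 are drawn by distance from the transcript start in kb, with peaks of the LPS comparison in red above the gene and peaks of the melatonin comparison in blue below; triangles give the direction, marker size grows with the score, and open markers are peaks on an exon that were assigned to another gene. Rb1cc1 peaks gather on the exon of 1892 bases, and the Tsc1 exon 18 peaks, with scores of 7.71 and 6.45, face each other.

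The annotation gave a peak in a 3′UTR to the nearest gene start, which was often that of a neighboring gene, and such peaks were outside the rule. The peak centres were therefore also placed on the exons of these genes in GENCODE M21. Of 41 peaks with their centre on an exon of an autophagy or mTOR gene, 23 were outside the rule (56.1%, against 36.7% for all protein-coding genes). For peaks annotated as 3′UTR this held for 17 of 20 (85.0%, against 61.0%). Adding them raised the number of genes with a peak from 29 to 36. Of all genes, 42.3% had a peak under the rule and 37.5% by exon position. The share of all genes under both joined is not given, so the count of 36 has no background. Neither kind of peak was found for 18 of the autophagy and mTOR genes. Of these 18, Becn1, Atg2a, Gabarap, Calcoco1, Bnip3l, Tfe3 and Tsc2 lie outside chromosomes 1 to 9, so a peak down in the LPS comparison could not be seen for them.

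The 7 genes with a peak on an exon only were Ulk1, Atg101, Wipi2, Vmp1, Atg4a, Lamp2 and Rptor. Ulk1, the main kinase of its complex, had a 3′UTR peak down in the melatonin comparison with a score of 1.84, which the annotation gave to Pus1. Rptor, which recruits substrates to mTOR complex 1, had a 3′UTR peak down in the melatonin comparison with a score of 1.31. Wipi2 (1.26), Vmp1 (2.32) and Atg4a (1.37) also had peaks down in the melatonin comparison. Atg101 (3.02) and Lamp2 (1.95 and 1.82) had peaks up in the melatonin comparison.

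The same placement added 3′UTR peaks to genes of the rule. Atg5 had a 3′UTR peak up in the LPS comparison with a score of 1.88. Both of its peaks were thus up in that comparison, but Atg5 lies on chromosome 10, where down peaks could not be seen. Atg16l1 likewise had a 3′UTR peak up in the LPS comparison (2.15), as did Wdfy3 (1.61). Atg4c, a protease that processes ATG8 proteins, had 3′UTR peaks down in the melatonin comparison (2.05 and 1.80), where its peak under the rule was up. Added peaks of the melatonin comparison were also up in the 3′UTRs of Ulk2 (1.52), Atg4d (1.60, annotated to an exon of the neighboring gene Kri1) and Wdfy3 (1.15) and down in the 3′UTR of Pik3r4 (1.25) and at exon 43 of Mtor (1.82). Sqstm1 had a 3′UTR peak up in the LPS comparison with a score of 1.33, at a place that is also an exon of Mrnip. This peak and the added Atg4d peak lie in the gene in GENCODE but outside its RefSeq bounds. In the 3′UTR of Tsc1, a peak at chr2:28688832-28688998 was up in the LPS comparison (2.07), and a peak sharing 145 bases with it was down in the melatonin comparison (1.91). In the 3′UTR of Nbr1, a peak at chr11:101580737-101580908 was up in the LPS comparison (1.72), and a peak sharing 112 bases was down in the melatonin comparison (1.20). The Tsc1 3′UTR and Tsc1 exon 18 were thus listed in opposite directions in both comparisons. Peaks centred on an exon were up in the LPS comparison in 11 of 54 genes (20.4%, interval 11.8% to 32.9%, against 16.5% of all genes) and down in 0 of 27 genes on chromosomes 1 to 9 (interval 0% to 12.5%, against 16.6%). In the melatonin comparison they were up in 9 genes (16.7%, interval 9.02% to 28.7%, against 20.5%) and down in 13 (24.1%, interval 14.6% to 36.9%, against 12.6%). By exon position the share over all genes thus lay outside the interval for down peaks of both comparisons and inside it for up peaks. Most of the exon-centred down peaks of the melatonin comparison had low scores. Only those of Epg5 (3.85) and of the first exon of Tsc1 (6.29), both shared scores, lay above 3.09, the median of all its down peaks. The others scored between 1.20 (Nbr1) and 2.32 (Vmp1). The median of 3.09 covers all feature classes. For down peaks annotated to exons and given to any gene the median was 2.08, which only the Vmp1 peak among these others exceeded.

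By the deposited feature classes, 36 of the 68 peaks were in exons (52.9%, against 55.4% of all peaks given to genes), and 26 were in introns (38.2%, interval 27.6% to 50.1%, against 24.2%). The 3′UTR held 3 (4.41%, interval 1.51% to 12.2%, against 13.9%), the 5′UTR 2 and the promoter 1. These intervals treat the peaks as independent, although 33 of the 68 lay in 5 genes and some sites were listed in both comparisons. Of the 41 peaks centred on a GENCODE exon, 37 had the centre on the 1 transcript chosen per gene and were placed along it. The 3′UTR held 19 of these 37 (51.4%, interval 35.9% to 66.6%, against 45.6% of all genes' peaks) and the coding sequence 18. The count of 3 by the deposited classes leaves out the 17 3′UTR peaks that were given to neighboring genes. Of the 37 peaks, 10 lay within 200 bases of the stop codon (27.0%, against 22.4%), and 32 lay in exons longer than 400 bases (86.5%, against 87.6%).

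**Figure D4:**
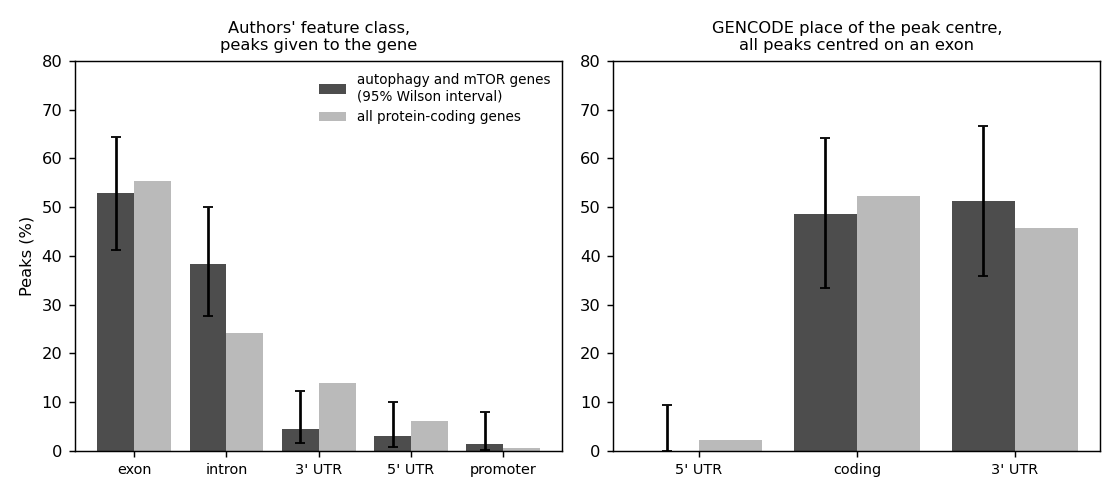
The left panel gives the percent of peaks in each feature class of the authors' annotation for the 68 peaks of autophagy and mTOR genes and all peaks given to genes, and the right panel the percent by the place of the peak centre in GENCODE for 37 and 15233 peaks centred on an exon; black lines are 95% Wilson intervals. The 3′UTR share of these genes is 4.41% on the left and 51.4% on the right.

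Many peaks annotated to an exon lay mostly beside it. The centre was on an exon of the gene for 14 of the 36 exon peaks (38.9%, against 50.5% of all genes' exon peaks). For 21 of the others it lay in the intron on the 3′ side of the exon, and for 0 on the 5′ side. Over all protein-coding genes 98.7% of such peaks also lay on the 3′ side. These 21 peaks had a median of 28 bases on the exon, with a range of 1 to 126, and include those of Optn, Atg3, Atg16l1 and Wdfy3. An offset of this kind means that the exon number of a peak names the nearest exon and does not place the methylated base.

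In the 39 peaks with bases on an exon of the transcript used, DRACH occurred 102 times in 3795 bases, or 26.9 per 1000 bases (interval 22.2 to 32.5, counting error only). Overlapping peaks of the comparisons, such as those of Tfeb and of Tsc1 exon 18, were each counted. Their shared bases and motifs were thus repeated, and the intervals do not allow for this. Over all genes' peaks the density was 24.5 per 1000 bases. GGAC occurred 18 times, or 4.74 per 1000 bases (interval 3.0 to 7.48), against 5.55. Whole transcripts held 20.9 DRACH per 1000 bases for the 54 genes and 20.4 for all genes. At least 1 DRACH was found in 27 of the 39 peaks (69.2%), and in 78.2% of all genes' peaks, which had more exon bases on average (127 against 97.3). GGAC was found in 14 (35.9%) and in 41.6% of all genes' peaks. Searches were made on the transcript strand only.

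Of 81 other genes of these pathways, 39 had a peak (48.1%, against 42.3% of all genes). Peaks were up in the LPS comparison in 17 of 81 (21%, against 20.1%) and down in 11 of 48 on chromosomes 1 to 9 (22.9%, against 22.0%). They were up in the melatonin comparison in 25 (30.9%, against 25.6%) and down in 10 (12.3%, against 15.3%). The lists below are small and are given as counts beside the same shares of all genes. Among 27 genes of amino acid sensing and the Rag GTPases, 12 had a peak (against 42.3% of all genes). In the LPS comparison 8 of them were up (against 20.1%) and 3 of 19 down (against 22.0%). In the melatonin comparison 5 were up (against 25.6%) and 2 down (against 15.3%). Among 7 genes of AMPK, the energy sensor that activates the ULK complex, and its kinase LKB1, 5 had a peak (against 42.3%). Against the same 42.3%, 6 of 14 other mTOR complex and target genes had a peak. So did 5 of 9 other autophagosome formation genes, 6 of 13 fusion genes and 5 of 11 other cargo receptor genes.

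The highest scores among these genes were found in the LPS comparison. Vps41, a subunit of the HOPS tether that fuses autophagosomes with lysosomes, was up at exon 20 with a score of 11.8, and Prkaa1, a catalytic subunit of AMPK, was up in intron 3 with 8.12. Wdr59, a part of the GATOR2 complex of amino acid sensing, was down in intron 17 with 10.6, and Tecpr1 was down in the 5′UTR with 7.59. Prkag2, a regulatory subunit of AMPK, was down in intron 2 with 10.4 and, in the melatonin comparison, up in intron 2 at another site with a shared score of 7.67 and down in intron 3 with a shared score of 3.85. Fnip1, a partner of folliculin, had peaks in exon 13 that were up in the LPS comparison (5.46) and down in the melatonin comparison (6.89) at separate sites. In the melatonin comparison, Retreg1, a receptor for autophagy of the endoplasmic reticulum, was up at exon 6 with 5.72, and Prkag1 was up in intron 2 with 5.44.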

How the data were processed

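Total RNA (100 µg) of the uterus was fragmented to about 100 nt and immunoprecipitated with 5 µg of m6A antibody. Per the methods and the processing notes, the authors used Fastp for trimming, STAR 2.5.2a for alignment to mm10, exomePeak2 for peak calling, MACS2 3.4 for the comparison of groups and ChIPseeker 1.22.1 for annotation on RefSeq transcripts. The deposited score is the log10 likelihood ratio of each peak, with 1 value per comparison. The depth of the libraries is unknown, and the direction of a peak is that of its table. Down peaks of LPS vs Veh after chromosome 9 were left out, since that table breaks off in chromosome 10.

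Counts were set beside those of 21887 RefSeq protein-coding genes, and no test was made. Intervals are Wilson 95% intervals and cover counting error only. Peak centres were placed on the exons of all protein-coding GENCODE M21 transcripts of a gene, found for 20481 of these genes. Motifs and places on the transcript were taken from 1 transcript per peak, the one chosen for the gene where the peak had bases on it. The genes and lists were chosen with earlier results of these data known. All 54 genes may be named. Described in full are the genes measured by the study (Sqstm1, Becn1, Atg5, Atg7, Map1lc3b), the 3 with the highest score in each table and those with peaks in both comparisons. Of other pathway genes, the 3 with the highest score in each table are named, except 1 result that is not reported here. The alternatives were other rules of assignment, a score of at least 3, another motif and peaks moved by 100 bases. Omission of shared scores and the joined rule were added after seeing the data. The steps were checked on simulated data. Python 3.11.15, numpy 2.4.6, pandas 2.3.3, scipy 1.17.1 and matplotlib 3.10.9 were used.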

Additional observations from a re-analysis of the deposited data

How the results depend on the processing

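The counts of genes kept within 1.5 times their value when only peaks whose annotation named the gene were used, when every peak assigned to the gene was used, and when shared scores were left out. With a score of at least 3, genes with a peak up in LPS vs Veh fell from 14 to 6, up in Mel+LPS vs LPS from 16 to 7 and down in Mel+LPS vs LPS from 12 to 6. With the peak centre on a GENCODE exon, genes down in LPS vs Veh went from 6 to 0 and genes up in Mel+LPS vs LPS from 16 to 9, and with both rules joined genes down in Mel+LPS vs LPS went from 12 to 20. The shares of all genes at a score of at least 3 and under the joined rule are not given. These changes are therefore not shown to be particular to the autophagy and mTOR genes. The 3′UTR share was 51.4% by GENCODE centre (19 of 37 peaks), 4.41% as annotated (3 of 68) and 0 of 28 peaks (0%) with a score of at least 3. The first set differs from the others, since it leaves out peaks off exons and adds peaks outside the rule. GGAC (4.74 per 1000 bases) is rarer than DRACH by its construction. A score cutoff can only lower a count, and joining the rules can only raise it. None of the 10 peaks down in LPS vs Veh had its centre on an exon, which gives the count of 0. Further reasons for the changes were not tested. The density of DRACH was 24.2 per 1000 bases in peaks moved by 100 bases and 27.6 with a score of at least 3. No paired analysis was possible because the tables hold no values per replicate, and for the same reason no replicate could be left out in turn.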
